A study of Mus musculus with 6 samples.

Results

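The Notch pathway genes described here were 3 ligand genes (Jag1, Jag2 and Dll1), 4 receptor genes (Notch1 to Notch4) and 3 target genes (Hes1, Hey1 and Hey2). They were picked by name from 17295 named genes, and all 10 were measured, each by 1 array feature of 9 probes matched through its RefSeq transcript. The cells were MC3T3-E1, a pre-osteoblast line from mouse skull bone, and expression was read on 6 single-colour Cy3 arrays. Differentiated cells (3 arrays) had spent 15 days in medium with ascorbic acid at 50 µg/mL and glycerol-2-phosphate at 10 mM, and undifferentiated cells (3 arrays) had not. All 6 cultures, labelled as biological triplicates at passages 5 to 12, received 100 nM 1,25(OH)2D3, the hormonal form of vitamin D, for 24 h. Cells given vehicle were not analysed here. The values therefore set differentiated against undifferentiated cells, both with hormone, and say nothing of what the hormone changed.

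Notch signalling passes between touching cells. A ligand of the Jagged or Delta type on one cell binds a Notch receptor on its neighbour, the receptor is cut by an ADAM protease and then by gamma-secretase, and the freed intracellular part joins the DNA-binding protein RBPJ and a Mastermind coactivator to switch on genes such as those of the Hes and Hey repressors. In the osteoblast lineage the pathway is known for holding progenitor cells back from maturing and for restraining Runx2 through Hes and Hey proteins.

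The median expression value, on a linear intensity scale, was 793 to 835 per array, and the control feature made of random probes read 96.3 to 112. Across genes, which are not independent, Pearson's r between 2 arrays was 0.993 to 0.996 among differentiated cells, 0.979 to 0.994 among undifferentiated cells and 0.960 to 0.977 across the groups. Undifferentiated replicate 3 was the array least like the rest of its group, and its array number starts as those of the 3 differentiated arrays do. The image dates in the array files divide the arrays exactly as the groups do, so date and differentiation cannot be told apart. Of 8 osteoblast lineage markers, 3 rose in differentiated cells (Alpl, Bglap and Sp7), none fell and 5 did not pass, beside 8.59% of all genes that rose. All 8 were above the control feature on at least 5 of 6 arrays.

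In differentiated cells the ligand gene Dll1 and the receptor gene Notch2 rose, the ligand gene Jag1 fell, and the other 7 genes did not pass the test. The changes were small, with none reaching 2-fold: Notch2 rose 1.60-fold, Dll1 rose 1.55-fold and Jag1 fell 1.51-fold. None of the 3 targets passed, and Hey2 lay at or below the random-probe control on all 6 arrays. The 3 of 10 genes that passed stand beside 19.5% of all 17295 named genes at the same threshold (limma's moderated test, Benjamini-Hochberg adjusted p under 0.05 over all named genes). By direction, 8.59% of all genes rose and 10.9% fell. The median log2 difference was 0.11 over the 10 genes and 0.08 over all genes. Groups did not overlap for 3 of the 10, against 40.1% of all genes. The count depended on single arrays, as did the share of all genes that passed. It was 0 without differentiated replicate 1, differentiated replicate 3 or undifferentiated replicate 2, where 7.83%, 9.49% and 8.64% of all genes passed. It was 2 without differentiated replicate 2 or undifferentiated replicate 1, where 11.7% and 13.8% of all genes passed. Without undifferentiated replicate 3 it was 4, where 45.0% of all genes passed. It was also 4 when arrays were weighted by their quality, where 48.7% of all genes passed.

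**Figure D1:**
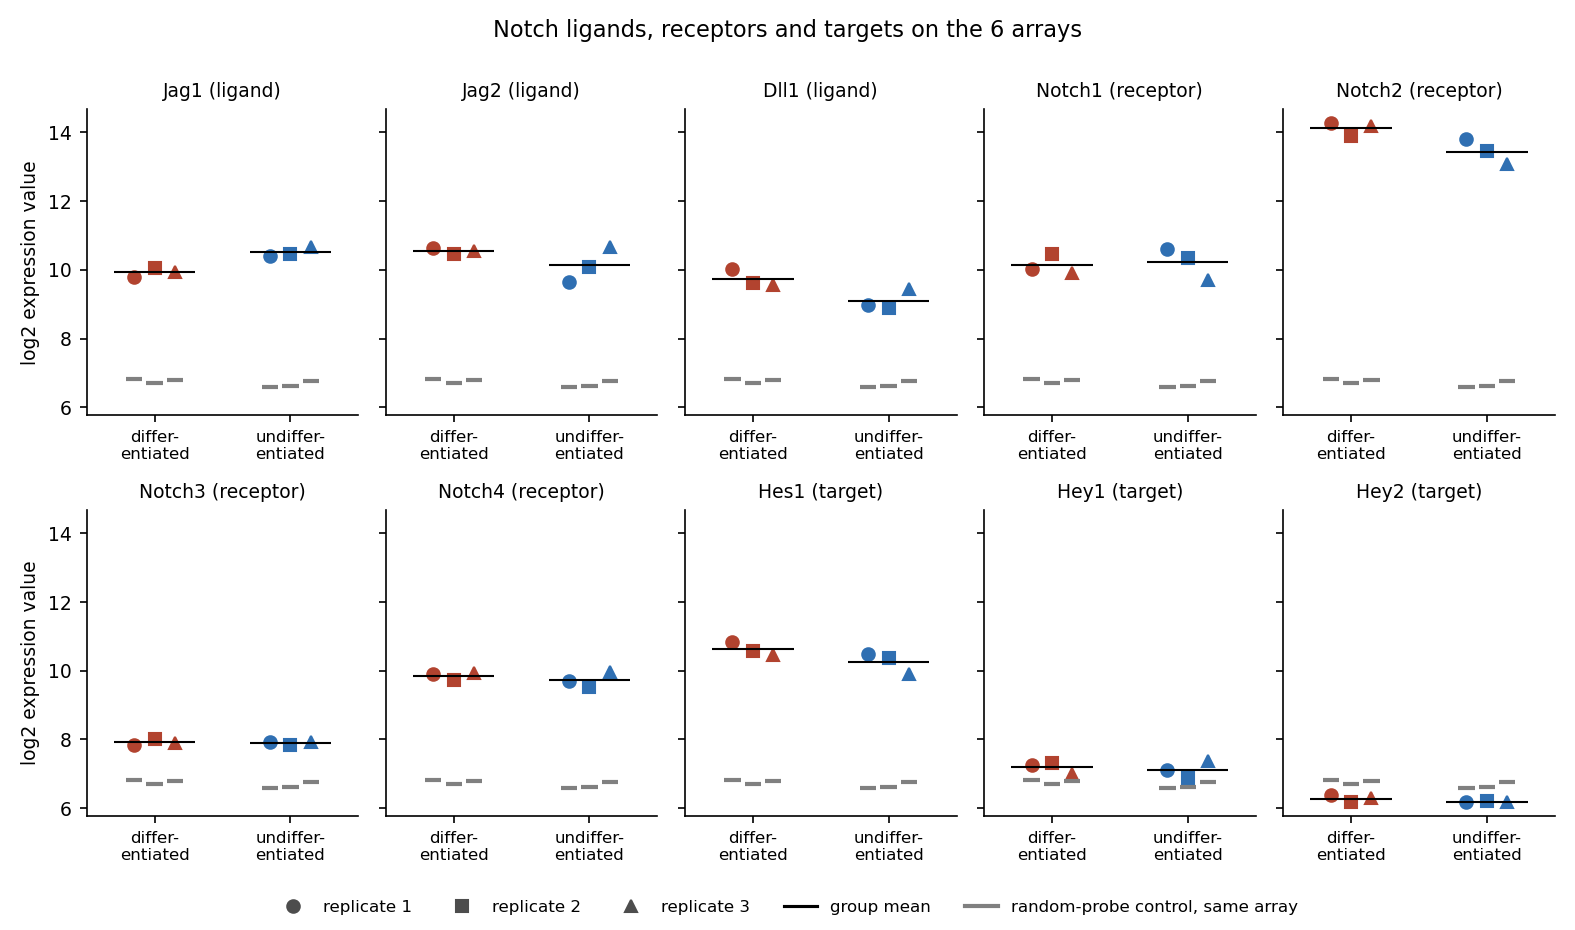
Log2 expression value of each gene on each array, with differentiated cells on the left of each panel and undifferentiated cells on the right; marker shapes give the replicate, black lines the group means (n = 3 each) and grey bars the random-probe control of the same array. Jag1 lies lower, and Dll1 and Notch2 higher, on all 3 differentiated arrays than on any undifferentiated array, and Hey2 lies under the control on all 6.

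Jag1 encodes Jagged1, a ligand that in humans is mutated in Alagille syndrome. It read 883, 1054 and 988 in differentiated replicates 1 to 3, against 1361, 1418 and 1625 in undifferentiated replicates 1 to 3. Every differentiated array was below every undifferentiated array. The means were 9.93 ± 0.13 in differentiated cells and 10.52 ± 0.13 in undifferentiated cells on the log2 scale (SD, n = 3 each), a fall of 1.51-fold (95% confidence interval 1.22 to 1.85, adjusted p = 0.0132). The fall was kept under every scaling. With the start of the array number as a term in the fit, the log2 difference was -0.74. That term sets only undifferentiated replicate 3, the highest array for Jag1, against the differentiated arrays. The adjusted p of Jag1 was 0.0713 without differentiated replicate 1, 0.0543 without differentiated replicate 3 and 0.0502 without undifferentiated replicate 2. In bulk RNA, fewer cells carrying a transcript and less transcript per cell cannot be told apart, here and for every gene that follows.

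Dll1 encodes Delta-like 1, the other main class of activating ligand. It read 1039, 783 and 757 in differentiated cells, against 499.5, 478 and 693 in undifferentiated cells. The groups did not overlap, and undifferentiated replicate 3 came closest to the differentiated arrays. The means were 9.73 ± 0.25 in differentiated cells and 9.10 ± 0.29 in undifferentiated cells (log2, SD, n = 3 each), a rise of 1.55-fold (95% confidence interval 1.18 to 2.04, adjusted p = 0.0338). This was the least stable of the 3 changes. It passed in 1 of 6 fits that left out an array, the one without undifferentiated replicate 3 (log2 difference 0.80, adjusted p = 0.000502), and its highest adjusted p among them was 0.153, without differentiated replicate 1. Its adjusted p was 0.0562 after cyclic loess. With the array number term, which sets only undifferentiated replicate 3 against the differentiated arrays, the difference was 0.29 (adjusted p = 0.324).

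Jag2, which encodes the second Jagged ligand, did not pass. It read 1591, 1397 and 1501 in differentiated cells, against 795, 1081 and 1623 in undifferentiated cells. The 3 differentiated arrays lay close together, while the undifferentiated arrays ran from below to above them. The log2 means were 10.54 ± 0.09 in differentiated cells and 10.13 ± 0.52 in undifferentiated cells (SD, n = 3 each), and the SD in undifferentiated cells was larger than that of 96.9% of all named genes in that group. The log2 difference was 0.42 (95% confidence interval -0.07 to 0.91, adjusted p = 0.19). Without undifferentiated replicate 3 it was 0.69 (adjusted p = 0.00138, up to 0.732 in other settings), and with the array number term it turned to -0.12 (adjusted p = 0.732).

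Jag1 and Dll1 are the 2 ligand genes that passed in opposite directions, and their promoters are shown so that the sequence ahead of each start can be set beside the values. The windows are the 250 bases before each annotated transcript start, from RefSeq on GRCm38.p6, written 5′ to 3′ on the gene's strand. Capitals mark matches on either strand to TGGGAA, the core bound by RBPJ, to CACNAG, the N-box bound by Hes repressors, and to AGGTCA or GGTTCA, half-sites of vitamin D response elements. Jag1 lies on the minus strand (chr2:137116521-137116770), and Dll1 has 2 starts on the minus strand (chr17:15375824-15376073 and chr17:15376933-15377182).
Jag1: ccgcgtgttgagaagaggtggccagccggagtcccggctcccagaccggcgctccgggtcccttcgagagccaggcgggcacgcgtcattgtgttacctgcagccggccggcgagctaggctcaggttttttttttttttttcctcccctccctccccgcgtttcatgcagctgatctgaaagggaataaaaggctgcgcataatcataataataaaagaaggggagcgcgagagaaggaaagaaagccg
Dll1 first start: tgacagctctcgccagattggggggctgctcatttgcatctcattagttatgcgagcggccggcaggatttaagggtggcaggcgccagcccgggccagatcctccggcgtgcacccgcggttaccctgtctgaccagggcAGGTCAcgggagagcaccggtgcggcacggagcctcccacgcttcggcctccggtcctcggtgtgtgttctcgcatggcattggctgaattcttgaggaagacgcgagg
Dll1 second start: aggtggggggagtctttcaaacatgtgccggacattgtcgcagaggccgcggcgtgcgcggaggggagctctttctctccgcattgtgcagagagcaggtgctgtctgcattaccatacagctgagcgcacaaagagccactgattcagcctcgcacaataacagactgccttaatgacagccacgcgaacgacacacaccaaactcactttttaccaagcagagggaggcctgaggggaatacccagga
No match was found in the window of Jag1 or in the second window of Dll1. The first window of Dll1 held 1 AGGTCA, beginning 109 bases before the start. Of 32841 such windows in the RefSeq table, 14.0% held AGGTCA, 8.84% GGTTCA, 21.6% TGGGAA and 36.7% CACNAG. The GC share was 57.2% for Jag1, and 64.0% and 56.0% for the windows of Dll1, against a median of 52.4% over all windows.

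Notch2 is the receptor gene that rose. NOTCH2 mutations that spare the receptor from degradation cause the bone-losing Hajdu-Cheney syndrome in humans. It read 19791, 15315 and 18705 in differentiated cells, against 14318, 11224 and 8588 in undifferentiated cells. The groups did not overlap, with undifferentiated replicate 1 nearest to differentiated replicate 2. The log2 means were 14.12 ± 0.19 in differentiated cells and 13.44 ± 0.37 in undifferentiated cells (SD, n = 3 each), a rise of 1.60-fold (95% confidence interval 1.20 to 2.14, adjusted p = 0.0304). Its sign was kept in all 18 alternative settings, with log2 differences of 0.49 to 1.05. The adjusted p was 0.139 without differentiated replicate 1, 0.106 without differentiated replicate 3 and 0.102 without undifferentiated replicate 2. The largest difference, 1.05, came with the array number term. That term sets only undifferentiated replicate 3, the lowest array for Notch2, against the differentiated arrays.

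The Notch2 window lies on the plus strand (chr3:98013288-98013537) and is shown as that of the receptor gene that changed.
Notch2: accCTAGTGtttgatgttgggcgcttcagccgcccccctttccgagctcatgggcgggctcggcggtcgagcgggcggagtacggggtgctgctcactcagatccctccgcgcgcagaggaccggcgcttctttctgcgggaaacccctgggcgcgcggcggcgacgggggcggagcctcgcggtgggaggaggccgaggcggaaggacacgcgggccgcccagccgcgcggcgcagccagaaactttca
It held 1 N-box, read on the reverse strand and beginning 247 bases before the start, and neither an RBPJ core nor a vitamin D half-site of the letters searched. Its GC share was 72.0%, above that of 93.1% of all windows.

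Notch1, the receptor best known from blood and embryonic development, did not pass. It read 1050, 1402 and 958 in differentiated cells, against 1561, 1296 and 838 in undifferentiated cells. The groups overlapped widely, and undifferentiated replicate 3 was the lowest of all 6 arrays. The log2 difference was -0.09 (95% confidence interval -0.59 to 0.41, adjusted p = 0.801). The SD was 0.29 in differentiated cells and 0.46 in undifferentiated cells, the second larger than for 94.6% of named genes in that group. The sign was not settled: the difference was -0.34 without undifferentiated replicate 3 (adjusted p = 0.0895) and 0.42 with the array number term (adjusted p = 0.176).

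Notch3 and Notch4, receptors known for their roles in vascular mural cells and in endothelium, did not pass either. Notch3 read 229, 259 and 237 in differentiated cells, against 241, 231 and 244 in undifferentiated cells. All 6 values lay within a narrow band above the control feature, and the log2 difference was 0.02 (95% confidence interval -0.26 to 0.29, adjusted p = 0.939). That sign turned under quantile normalization, cyclic loess and equal array medians, so no direction is given. Notch4 read 952, 850 and 983 in differentiated cells, against 829, 743 and 997 in undifferentiated cells, and its highest array was undifferentiated replicate 3. The log2 difference was 0.12 (95% confidence interval -0.20 to 0.44, adjusted p = 0.561).

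Of 7 mural cell markers, none passed, and their summed intensity was 4994 to 5065 in differentiated cells and 4343 to 5317 in undifferentiated cells. Of 9 endothelial markers, 3 rose and none fell, beside 8.59% of all genes that rose and 10.9% that fell. The summed intensity of the endothelial markers was 4860 to 5222 in differentiated cells and 4152 to 4500 in undifferentiated cells. The 3 that rose were Tek (log2 difference 1.06, adjusted p = 0.0033), Esam (0.48, adjusted p = 0.0263) and Pecam1 (0.45, adjusted p = 0.0493). The call was lost in 5 of 18 settings for Esam and in 14 of 18 for Pecam1, with adjusted p up to 0.128 and 0.422. Cdh5, the gene of the endothelial junction protein VE-cadherin, was at or below the control feature on all 6 arrays. The part of these markers in the values of Notch3 and Notch4 was not tested. Markers of other lineages moved as well: of 4 chondrocyte markers 2 rose and 1 fell, and of 5 adipocyte markers 1 rose. None of the 4 haematopoietic and 3 skeletal muscle markers measured passed.

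**Figure D2:**
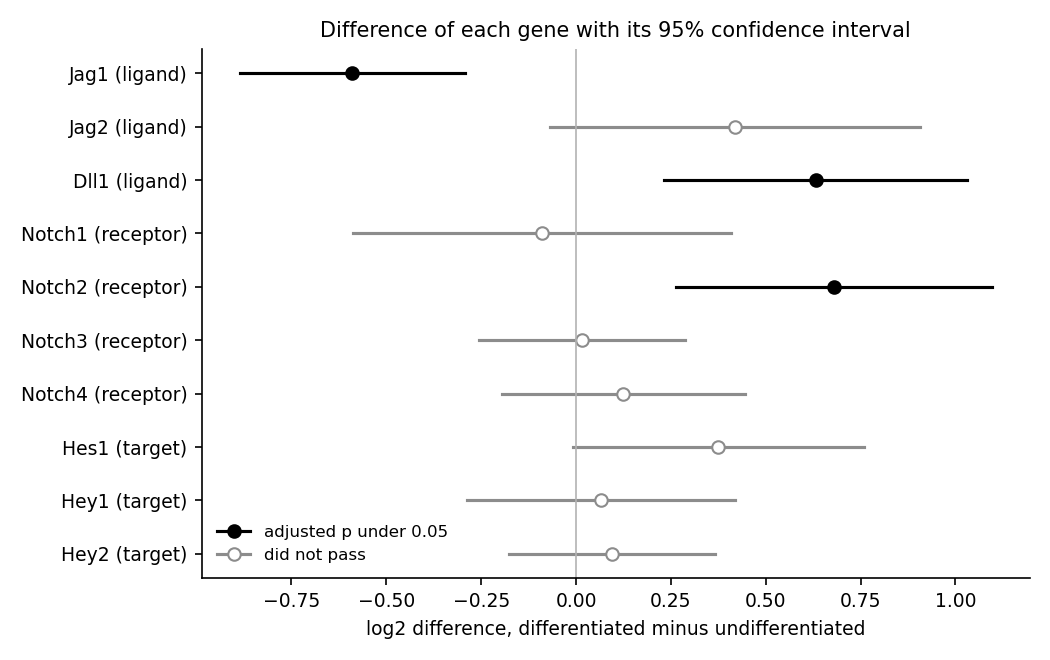
Log2 difference of each gene, differentiated minus undifferentiated cells, with its 95% confidence interval before any adjustment for the number of genes. Filled points passed at an adjusted p under 0.05: Jag1 at -0.59, Dll1 at 0.63 and Notch2 at 0.68. The interval of Hes1 reaches just below 0.

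Hes1, a transcriptional repressor and the classical direct target of Notch receptors, did not pass. It read 1817, 1536 and 1416 in differentiated cells, against 1438, 1319 and 954 in undifferentiated cells. Differentiated replicate 3 lay below undifferentiated replicate 1, so the groups overlapped at that one pair. The log2 means were 10.63 ± 0.18 in differentiated cells and 10.25 ± 0.31 in undifferentiated cells (SD, n = 3 each), with a difference of 0.38 (95% confidence interval -0.01 to 0.76, adjusted p = 0.144). The difference was above 0 in all 18 alternative settings, from 0.20 without undifferentiated replicate 3 to 0.73 with the array number term. That term sets only undifferentiated replicate 3, the lowest array for Hes1, against the differentiated arrays. The fit with that term was the only one in which Hes1 passed (adjusted p = 0.00789, up to 0.397 in other settings), and 17.7% of all genes passed there.

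Hey1 and Hey2, repressors of the related Hey family, were dim. Hey1 read 154, 159 and 127 in differentiated cells, against 138, 118 and 167 in undifferentiated cells. All 6 values were above the control feature, by log2 values of 0.20 to 0.62, and the groups overlapped fully. The log2 difference of Hey1 was 0.07 (95% confidence interval -0.29 to 0.42, adjusted p = 0.789), and its sign turned under quantile normalization and cyclic loess. Hey2 read 82.7, 72.0 and 79.1 in differentiated cells, against 72.6, 73.4 and 72.7 in undifferentiated cells. Since every array had Hey2 at or below its control feature, no fold is given for it.

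The Hey2 window (chr10:30842784-30843033, minus strand) is shown because it was the only one of the 9 windows found, for 8 of the 10 genes, that held the RBPJ core. Windows for Hes1 and Hey1 were not used here.
Hey2: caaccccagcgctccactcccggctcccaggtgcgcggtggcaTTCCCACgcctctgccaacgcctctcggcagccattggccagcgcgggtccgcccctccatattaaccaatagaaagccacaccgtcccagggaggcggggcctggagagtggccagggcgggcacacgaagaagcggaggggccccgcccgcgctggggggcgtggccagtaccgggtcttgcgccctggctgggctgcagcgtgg
The core was read on the reverse strand, beginning 207 bases before the start, in the longer form GTGGGAA. That longer form, which contains TGGGAA, was found in 5.41% of all windows. 

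Undifferentiated replicate 3 moved the genes in different directions. Relative to the mean of undifferentiated replicates 1 and 2, it was higher for Jag2 by a log2 value of 0.81, for Dll1 by 0.51, for Hey1 by 0.39, for Notch4 by 0.34 and for Jag1 by 0.23. It was lower for Notch1 (-0.76), Notch2 (-0.56) and Hes1 (-0.53). For Jag2 and Dll1 this brought the array nearer to the differentiated cells, and for Jag1, Notch2 and Hes1 it carried it further from them. Notch3 and Hey2 differed by 0.05 and -0.01.

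The genes whose profiles over the 6 arrays were most like those of Jag1 and Notch2 were found by the root mean square difference after each gene's own mean was subtracted. For Jag1 they were Eed (0.033 on the log2 scale), Acap2 (0.033) and Papss2 (0.038), which differed by log2 values of -0.58, -0.58 and -0.59 between the groups. For Notch2 they were Slc25a10 (0.053), Igfbp7 (0.063) and Nol6 (0.079), which differed by 0.59, 0.73 and 0.64.

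Most other genes of the pathway did not pass. Of 66 listed, 61 were measured, 4 rose, 11 fell and 46 did not pass, with a median log2 difference of 0.014 against 0.08 over all genes. The 24.6% that passed stand beside 19.5% of all genes. Both counts depended on single arrays, as did the share of all genes that passed. Without undifferentiated replicate 3, 11 rose and 19 fell, where 45.0% of all genes passed. Without undifferentiated replicate 2, 1 rose and 4 fell (8.64% of all genes passed). Without differentiated replicate 1 or 3, 1 rose and 5 fell (7.83% and 9.49% of all genes). Without differentiated replicate 2, 2 rose and 6 fell (11.7% of all genes). With array weights 15 rose and 19 fell (48.7% of all genes).

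The genes that act with the receptor's intracellular part in the nucleus held the largest falls. Of the 10 with a feature, 5 fell, 5 did not pass and none rose, with a median log2 difference of -0.39. The number that fell was 3 without differentiated replicate 3 or without undifferentiated replicate 2, and 4 or 5 without any other array. Of these 10 genes, 8 belong to the brightest of 3 equal level classes, in which 15.0% of genes fell and the median difference was -0.08. Rbpj, the DNA-binding partner of all Notch receptors, read 3848, 5427 and 4864 in differentiated cells, against 10525, 10318 and 10916 in undifferentiated cells. The 3 undifferentiated arrays, replicate 3 included, lay close together and far above the differentiated ones. Rbpj fell 2.27-fold (95% confidence interval 1.81 to 2.85, adjusted p = 0.000476) and passed in all 18 alternative settings, with log2 differences of -1.29 to -1.04.

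Ccnc, the gene of cyclin C, which with CDK8 phosphorylates the receptor's intracellular part and marks it for turnover, read 403, 506 and 411 in differentiated cells, against 1047, 999.6 and 1044 in undifferentiated cells. It fell 2.35-fold (adjusted p = 0.000189) and also passed in all 18 settings. Its partner gene Cdk8 differed by -0.20 (adjusted p = 0.272). The acetyltransferase genes Kat2b and Ep300 also fell, Kat2b by 1.69-fold (adjusted p = 0.00713) and Ep300 by 1.64-fold (adjusted p = 0.00878, and up to 0.0543 over the alternatives). Another acetyltransferase gene of the list, Kat2a, lay higher on every differentiated array but did not pass (log2 difference 0.39, adjusted p = 0.113). Fbxw7, whose product ubiquitinates the intracellular part, fell 1.41-fold (adjusted p = 0.0234), a call that was lost in 6 of 18 settings, with adjusted p up to 0.109. The Mastermind genes measured, Maml1 and Maml3, differed by 0.03 and 0.01.

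**Figure D3:**
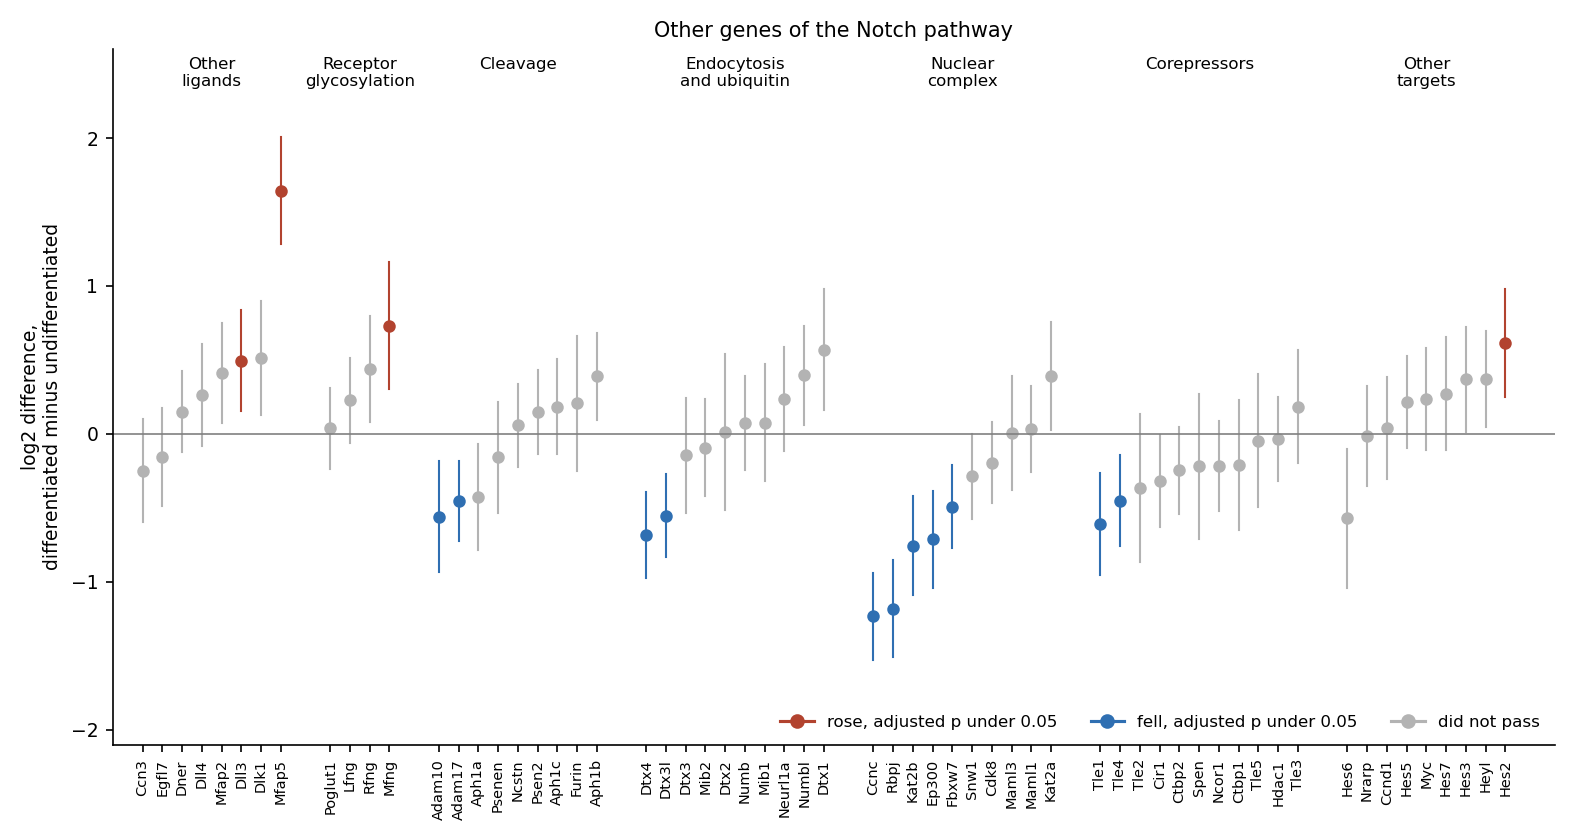
Log2 difference, differentiated minus undifferentiated cells, of the 61 other pathway genes measured, by their role, with 95% confidence intervals before adjustment. Mfap5 is the highest at 1.64, and Ccnc and Rbpj are the lowest at -1.23 and -1.18.

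Of 9 cleavage genes measured, 2 fell and none rose. The 22.2% that passed stand beside 19.5% of all genes. They were the ADAM protease genes listed for the cut that follows ligand binding, Adam10 (1.47-fold, adjusted p = 0.0433) and Adam17 (1.37-fold, adjusted p = 0.0283). Both belong to the brightest level class, in which 15.0% of genes fell. Adam10 read 21001, 17724 and 17287 in differentiated cells, against 25070, 23359 and 35081 in undifferentiated cells. The call was lost in 7 of 18 settings for Adam10 and in 8 of 18 for Adam17, with adjusted p up to 0.15 and 0.122. None of the other 7 cleavage genes measured passed. Among them were the protease gene Furin (0.21, adjusted p = 0.489) and the gamma-secretase subunit genes Ncstn (0.06, adjusted p = 0.769) and Psen2 (0.15, adjusted p = 0.426). The subunit genes Aph1a (-0.42, adjusted p = 0.0873) and Aph1b (0.39, adjusted p = 0.0621) differed in opposite directions.

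Among 10 genes of endocytosis and ubiquitin transfer, 2 of the Deltex family fell and 8 did not pass. Dtx4 read 7791, 8840 and 7691 in differentiated cells, against 12737, 12026 and 14334 in undifferentiated cells, a fall of 1.61-fold (adjusted p = 0.00578) that passed in all 18 settings. Dtx3l fell 1.47-fold (adjusted p = 0.0132, up to 0.0685 over the alternatives). Numb, an inhibitor of Notch receptors, differed by 0.07 (adjusted p = 0.738).

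Of 11 corepressor genes, the Groucho family members Tle1 and Tle4 fell and 9 did not pass. The 18.2% that passed stand beside 19.5% of all genes. Both genes were dim, and Tle4 lay above the control feature by log2 values of only 0.25 to 0.37 in differentiated cells. The other family members Tle2, Tle3 and Tle5 differed by -0.37, 0.18 and -0.05 and did not pass. Tle1 fell by 1.53-fold (adjusted p = 0.0228) and Tle4 by 1.37-fold (adjusted p = 0.044). The calls were lost in 4 and 7 of 17 settings, with adjusted p up to 0.13 and 0.315.

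The 4 genes that rose were 2 of 8 other ligand genes, 1 of 4 glycosylation genes and 1 of 9 genes listed as targets. These shares of 25.0%, 25.0% and 11.1% stand beside 8.59% of all genes that rose. Mfap5, a microfibril glycoprotein gene listed here as a non-classical ligand, read 2785, 2612 and 1984 in differentiated cells, against 670.4, 803 and 877 in undifferentiated cells. It rose 3.13-fold (95% confidence interval 2.43 to 4.02, adjusted p = 0.000102) and passed in all 18 settings. Dll3, a Delta family member that does not activate receptors on neighbouring cells, rose 1.41-fold (adjusted p = 0.0478, lost in 11 of 18 settings with adjusted p up to 0.167). The endothelial ligand gene Dll4 differed by 0.26 (adjusted p = 0.237). Of 4 glycosylation genes, Mfng, which encodes the Manic fringe sugar transferase, rose 1.66-fold (adjusted p = 0.0261, up to 0.293 over the alternatives), and its relative Lfng differed by 0.23 (adjusted p = 0.226).

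Among 9 further genes listed as targets, only Hes2 passed, with a rise of 1.53-fold (adjusted p = 0.0278, lost in 6 of 18 settings with adjusted p up to 0.246). They were listed by name, and control of these genes by Notch receptors was not tested. Heyl, the third Hey family gene, read 655, 553 and 512 in differentiated cells, against 447, 491 and 388 in undifferentiated cells. Its groups did not overlap, and its log2 difference was 0.37 (adjusted p = 0.0946). Nrarp, a feedback inhibitor induced by Notch receptors, differed by -0.01 (adjusted p = 0.955), and Hes5 by 0.22 (adjusted p = 0.279). Hes6 read 3415, 2944 and 2601 in differentiated cells, against 5938, 4590 and 3148 in undifferentiated cells. Its groups overlapped, and its log2 difference of -0.57 did not pass (adjusted p = 0.0817).

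**Figure D4:**
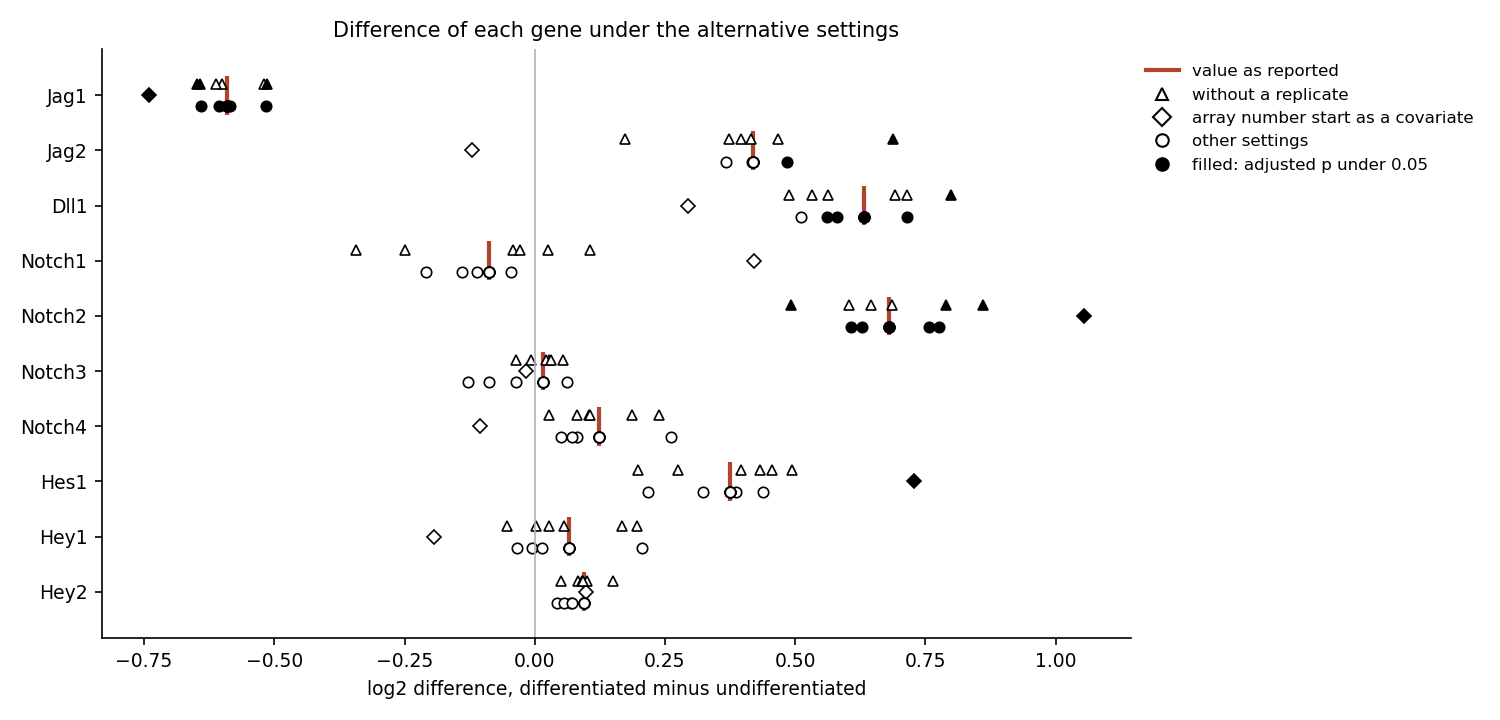
Log2 difference of each of the 10 genes as reported (red lines) and under the alternative settings, with triangles for fits that leave out an array, diamonds for the array number start as covariate and circles for the other settings; filled symbols passed at an adjusted p under 0.05. Jag1 stays below 0, and Dll1, Notch2 and Hes1 stay above 0, in every setting drawn. The points of Hey2 also lie above 0, but Hey2 is at or below the control on all 6 arrays, so no direction is given for it.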

How the data were processed

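Each of 6 MC3T3-E1 RNA samples was measured on its own NimbleGen array (Cy3, single-colour), and groups were taken from the sample titles. The authors deposited 1 intensity per feature on a linear scale. It comes from RMA, per the submitters' processing notes, which corrects background, normalizes between arrays and summarizes probes. Its version, the arrays processed together and the genome build are not stated there. The series-wide deposited table differed from the array files by at most 0. The control feature, 6131 random probes, entered no test.

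Log2 was taken with no further normalization. Features were named through RefSeq transcripts (table of GRCm38.p6, names only), which gave 1 symbol for 17846 of 42586 features. For the 467 genes with several features the one with the highest mean was used. Differences are differentiated minus undifferentiated, from limma 3.58.1 (R 4.3.3; 2-sided), with p-values adjusted by Benjamini-Hochberg over 17295 genes. The fit was tested on simulated data. The tests measure the spread between 3 arrays a group, which limits the precision. The 10 genes and all lists were chosen with earlier results of these data known. The text names the 10 genes, every pathway gene that passed, 5 further pathway genes fixed by name, and the 3 genes most like Jag1 and Notch2. Some genes of the pathway list are not reported here and are left out of its counts. Others were chosen after their values were seen: Cdk8, Maml1, Maml3, Kat2a, Furin, Ncstn, Psen2, Aph1a, Aph1b, Dtx1, Dtx2, Dtx3, Tle2, Tle3, Tle5, Nrarp, Hes5, Hes6 and the markers named. Alternatives covered scaling, filters, array weights, the start of the array number, a block for the replicate number, and leaving out each array. The windows of 250 bases come from RefSeq.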

Additional observations from a re-analysis of the deposited data

How the results depend on the processing

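Only 3 arrays a group limit these results, and leaving out 1 array also leaves fewer degrees of freedom. Array weights (gene-by-gene estimate, since the default estimate did not converge) raised the genes called to 8430 and the pathway genes called to 34, against 3366 and 15. The share of called genes that rose was 34.1% with equal array medians, against 44.1% with the deposited values. Leaving out 1 array gave 1354 to 7778 genes called (the high value without undifferentiated replicate 3), 0 to 4 of the 10 genes and 5 to 30 pathway genes. The log2 differences then ran from -0.65 to -0.51 for Jag1, 0.17 to 0.69 for Jag2, 0.49 to 0.80 for Dll1, -0.34 to 0.11 for Notch1, 0.49 to 0.86 for Notch2, -0.036 to 0.055 for Notch3, -0.054 to 0.20 for Hey1 and -0.049 to 0.17 for Numb. With the start of the array number as a term in the fit, Jag2 (-0.12), Notch1 (0.42), Notch3 (-0.017), Notch4 (-0.11), Hey1 (-0.19) and Numb (-0.11) turned sign, Dll1 no longer passed (0.29) and Hes1 passed (0.73). With array weights Jag2 passed (0.48). Cyclic loess left Dll1 short of the threshold (0.51, adjusted p = 0.0562) and turned Notch3 to -0.13 and Hey1 to -0.034. Quantile normalization turned Notch3 to -0.087 and Hey1 to -0.0045, and equal array medians turned Notch3 to -0.036. The cause of these shifts was not tested. Same-numbered arrays shared only a number: their deviations correlated at 0.018, 0.13 and 0.066, and not every array correlated best with its own number. With the replicate number as a block, 3451 genes were called, the 10-gene count was again 3 and the pathway count 15, although Dll3 (adjusted p = 0.0562) and Tle4 (adjusted p = 0.0522) no longer passed. The log2 differences are unchanged by a balanced block, and none of the 10 genes changed its call there.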
